A study of Sus scrofa with 16 samples.

Results

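The endothelin and adrenomedullin system was followed through 10 genes in hippocampal RNA-seq of 16 preterm pigs. The list held the peptide ligands EDN1, EDN3 and ADM, the receptor genes EDNRA, EDNRB, CALCRL, RAMP2 and RAMP3, and the enzymes ECE1 and NOS3. Members were found by joining the pig Ensembl gene IDs of the expression table to gene symbols, which gave 7 of the 10. EDN1 was identified as ENSSSCG00000001050 because the group means that the study printed for this gene lay within 0.0344 log2 units of that entry, with the next entry at 0.2147. The same procedure led to the entry of ADM, which had also been found by symbol, with a gap of 0.0334. EDN3 and RAMP3 were not found by name and are not analysed here. The 8 members found were among 22815 distinct entries of the table, and all 8 were among the 13590 entries that averaged 0.5 FPKM or more and were tested, FPKM being fragments per kilobase of transcript scaled to the mapped reads of the library. EDN1 and ADM were also in the lists of genes that the study had drawn from Si-NEC against No NEC and from Si-NEC against Co-NEC in these same pigs, so their differences in both comparisons are given as a description, with no test.

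The pigs had been delivered preterm by caesarean section and reared for about a week on human donor milk and parenteral nutrition, during which necrotizing enterocolitis (NEC) arose spontaneously in part of them. There were 6 Si-NEC pigs (3 female and 3 male), whose small intestine had severe lesions and whose colon could have them too, 5 Co-NEC pigs (2 female and 3 male), whose severe lesions were confined to the colon, and 5 No NEC pigs (2 female and 3 male), with no visible lesions. All 3 groups shared the preterm birth and were formed by disease, not by allocation. The donor milk was of different types, and neither the type fed to a pig nor its sow is in the labels. RNA came from the whole left hippocampus of each pig, so that fewer cells of a type and less RNA per cell cannot be told apart. The marker lists examined held none for oligodendrocytes. Their highest means were 603 FPKM for GFAP, the astrocytic filament protein, and 582 FPKM for SLC17A7, the vesicular glutamate transporter. The hemoglobin gene HBB averaged 231 FPKM. SNAP25 and RBFOX3, which define neurons, were not found by name. TTR, the main transcript of the choroid plexus, averaged 11.2 FPKM. The FPKM of a pig summed to between 544629 and 864931, and the read depth behind these values is unknown. No NEC pig 230-15 and Si-NEC pig 223-15 stood apart, with the highest sums and with median correlations to the other pigs of 0.902 and 0.933. The number after the hyphen of a pig's label is 14 or 15 and is not explained. All 6 pigs with suffix 14 were male, and 7 of the 10 with suffix 15 were female.

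Endothelin-1, the product of EDN1, is a potent vasoconstrictor peptide made chiefly by endothelial cells. It is cut from its precursor by endothelin-converting enzyme, encoded by ECE1. Its receptor EDNRA on vascular smooth muscle mediates constriction, while EDNRB on endothelium and glia mediates nitric oxide release through the endothelial synthase NOS3 and clears the peptide. Adrenomedullin, the product of ADM, is a vasodilator that signals through CALCRL, a receptor that needs RAMP2 or RAMP3 to bind it. Both ligand genes are known to respond to low oxygen and to inflammatory cytokines in many cell types.

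The levels of the 8 members spanned a wide range. RAMP2 was the most abundant, with a mean of 64.5 ± 10.5 FPKM (SD, n = 16), followed by ECE1 at 13.5 ± 1.64 FPKM, NOS3 at 7.80 ± 1.25 FPKM and CALCRL at 4.06 ± 1.31 FPKM. EDN1 at 2.24 ± 2.49 FPKM, EDNRB at 2.14 ± 0.626 FPKM, ADM at 1.97 ± 2.27 FPKM and EDNRA at 1.06 ± 0.257 FPKM formed the low end. RAMP2 exceeded ECE1, and ECE1 exceeded NOS3, in 16 of 16 pigs. NOS3 exceeded CALCRL in 15 pigs, and CALCRL exceeded EDN1 in 15. The order of the last 4 was not stable, since EDN1 exceeded EDNRB in 5 of 16 pigs, EDNRB exceeded ADM in 10, and ADM exceeded EDNRA in 8. The receptor partner RAMP2 was on average 17.4-fold as abundant as CALCRL per unit of transcript length, with a range of 9.81-fold to 32.2-fold over the pigs.

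The members also differed in how far single pigs lay apart. The highest pig exceeded the lowest 23.8-fold for EDN1 and 30.2-fold for ADM, but 1.48-fold for ECE1 and at most 2.99-fold for the other receptors and enzymes, the latter value being that of CALCRL. Within groups, the pooled SD was 0.69 for EDN1 and 0.75 for ADM on the log2(FPKM + 0.5) scale, the scale of all log2 values here. By group the SD was 0.98 in Si-NEC, 0.37 in Co-NEC and 0.47 in No NEC pigs for EDN1, and 0.90, 0.72 and 0.53 for ADM. Among the 1000 tested entries closest to each in mean level, the median pooled SD was 0.36 and 0.37. The pooled SD of EDN1 and ADM lay at the 89.6th and 90.4th percentile. It drew on the Si-NEC pigs through which both had been listed, so these percentiles are a description. The corresponding percentiles of the other 6 members ran from 16.7 for EDNRA to 71.4 for CALCRL.

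**Figure D1:**
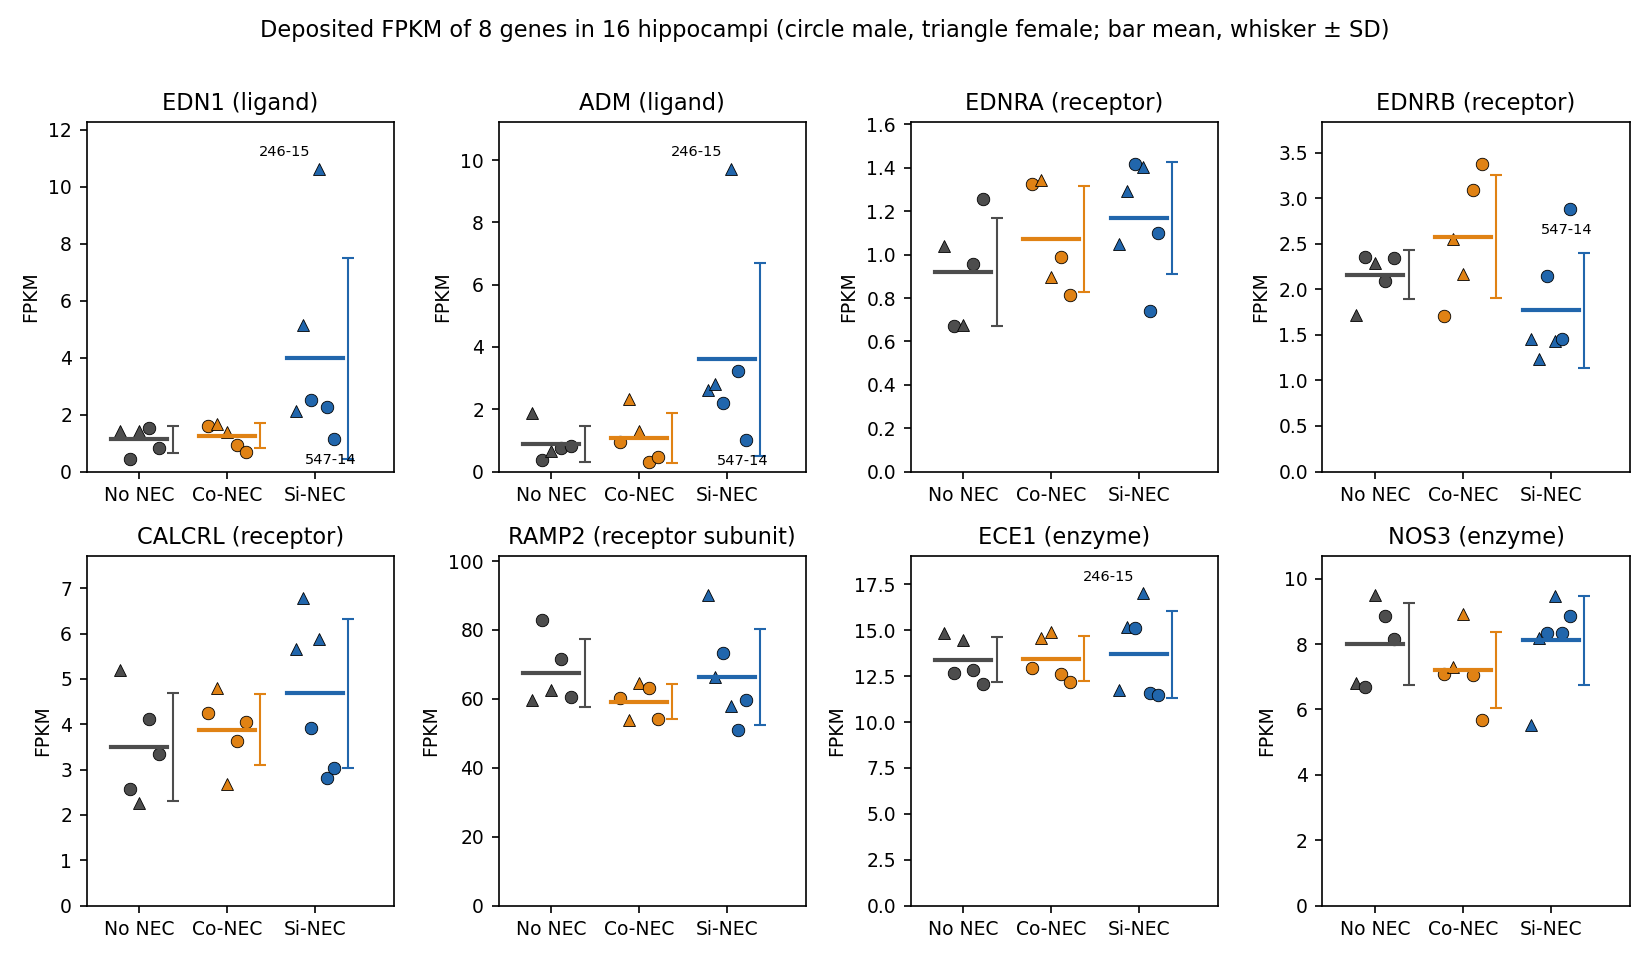
FPKM of each gene (vertical axes, each from 0) in the No NEC, Co-NEC and Si-NEC pigs. Each point is 1 pig, circles are male and triangles female, horizontal bars are group means and whiskers are the mean ± SD. Pig 246-15 is far above all others for EDN1 (10.6 FPKM) and ADM (9.72 FPKM), while the receptors and enzymes overlap between the groups.

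EDN1, the constrictor ligand, had its highest values in the Si-NEC pigs. Its values were 0.447, 0.823, 1.42, 1.43 and 1.52 FPKM in the No NEC pigs and 0.704, 0.942, 1.39, 1.61 and 1.67 FPKM in the Co-NEC pigs. Among Si-NEC pigs the range was from 1.14 through a median of 2.40 to 10.6 FPKM. Hence 5 of the 6 Si-NEC pigs lay above all pigs of the other groups, and only pig 547-14 lay within their range. At least 5 such pigs were found for 0.817% of the tested entries against No NEC and for 1.98% against Co-NEC. Group means with their SD were 3.98 ± 3.53 FPKM for Si-NEC (n = 6), 1.27 ± 0.425 FPKM for Co-NEC (n = 5) and 1.13 ± 0.472 FPKM for No NEC (n = 5). Pig 246-15 alone held 44.6% of the Si-NEC sum. The mean of Si-NEC was 3.52 times that of No NEC, and 2.34 times without that pig, while the medians differed 1.69-fold.

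Against No NEC, the log2 fold change of EDN1 in Si-NEC was 1.21 (SE 0.43), place 74 from the top among the 13590 tested entries, of which 0.743% were higher by at least 1 log2 unit. Against Co-NEC it was 1.08 (SE 0.41), where 0.611% of the entries reached 1 log2 unit. Leaving out single pigs moved the first value between 0.89 (without 246-15) and 1.44 (without 547-14). In Co-NEC against No NEC, a comparison for which the study had not listed the gene, EDN1 differed by 0.14 (SE 0.25; limma, adjusted p = 0.890; exact permutation p = 0.603). Both of these groups had been the lower side where the gene was listed, so this test is not fully free of that choice.

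ADM, the dilator ligand, also had its highest values in Si-NEC pigs. Its values were 0.364, 0.659, 0.752, 0.836 and 1.88 FPKM in the No NEC pigs and 0.322, 0.461, 0.951, 1.32 and 2.34 FPKM in the Co-NEC pigs. Among Si-NEC pigs the range was from 1.02 through a median of 2.71 to 9.72 FPKM. The lowest Si-NEC pig was again 547-14 and the highest again 246-15, which held 45% of the group's sum. All No NEC pigs were exceeded by 5 of the 6, and at least 5 such pigs were found for 0.817% of the tested entries. The ranges of Si-NEC and Co-NEC pigs overlapped. Group means with their SD were 3.60 ± 3.09 FPKM for Si-NEC (n = 6), 1.08 ± 0.809 FPKM for Co-NEC (n = 5) and 0.897 ± 0.575 FPKM for No NEC (n = 5). The mean of Si-NEC was 4.01 times that of No NEC, and 2.65 times without pig 246-15, and the medians differed 3.61-fold.

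The log2 fold change of ADM in Si-NEC was 1.38 (SE 0.41) against No NEC, place 54 from the top of the 13590 entries, and 1.26 (SE 0.44) against Co-NEC. The first value ran from 1.06 (without 246-15) to 1.61 (without 547-14) when single pigs were left out. In Co-NEC against No NEC, ADM differed by 0.11 (SE 0.36; limma, adjusted p = 0.939; exact permutation p = 0.802). Both Si-NEC comparisons of the ligands share the Si-NEC pigs, and both comparisons with No NEC share the No NEC pigs, so the values are not independent. As for EDN1, the test of ADM in Co-NEC against No NEC is not fully free of the choice.

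EDNRB, the receptor that clears endothelin-1, was the only member whose Si-NEC mean was below that of both other groups. Its values were 1.72, 2.1, 2.29, 2.35 and 2.36 FPKM in the No NEC pigs and 1.71, 2.16, 2.56, 3.09 and 3.37 FPKM in the Co-NEC pigs. Among Si-NEC pigs the range was from 1.24 through a median of 1.45 to 2.88 FPKM. In 4 of the 6 Si-NEC pigs EDNRB was below every No NEC and every Co-NEC pig, and the highest Si-NEC value was that of pig 547-14, the pig with the lowest EDN1 of its group. The share of all tested entries with at least 4 Si-NEC pigs below every pig of the other group was 2.35% for No NEC and 6.17% for Co-NEC. Group means with their SD were 1.77 ± 0.630 FPKM for Si-NEC (n = 6), 2.58 ± 0.673 FPKM for Co-NEC (n = 5) and 2.16 ± 0.269 FPKM for No NEC (n = 5). On the log2 scale Si-NEC differed by -0.27 (SE 0.18; limma, adjusted p = 1.0; exact permutation p = 0.156) against No NEC and -0.45 (SE 0.20; unadjusted p = 0.0440, adjusted p = 0.867; exact permutation p = 0.0628) against Co-NEC. Neither passed, and 2.4% of all tested entries had an unadjusted p under 0.05 with the lower mean in Si-NEC. EDNRB was 0.19 log2 units higher in Co-NEC than in No NEC pigs (SE 0.17; adjusted p = 0.812; exact permutation p = 0.262).

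EDNRA, the constrictor receptor, was the lowest member in level. It ran from 0.671 to 1.26 FPKM in No NEC, from 0.815 to 1.34 FPKM in Co-NEC and from 0.742 to 1.42 FPKM in Si-NEC pigs, so the ranges overlapped throughout. The log2 difference of Si-NEC was 0.23 (SE 0.16; limma, adjusted p = 1.0; exact permutation p = 0.145) against No NEC and 0.08 (SE 0.15; adjusted p = 0.95; exact permutation p = 0.561) against Co-NEC. The ratio of EDNRB to EDNRA was 2.52 ± 0.868 (n = 5) in No NEC, 2.57 ± 1.1 (n = 5) in Co-NEC and 1.58 ± 0.627 (n = 6) in Si-NEC pigs, with pig 224-15 lowest of all at 0.958 and Co-NEC pig 552-14 highest at 4.14. This ratio was not tested.

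On the adrenomedullin side, CALCRL, the receptor itself, ran from 2.27 to 5.21 FPKM in No NEC, from 2.69 to 4.79 FPKM in Co-NEC and from 2.82 to 6.78 FPKM in Si-NEC pigs. The 3 highest values of all, 5.65, 5.89 and 6.78 FPKM, were those of the 3 female Si-NEC pigs, while the 3 male Si-NEC pigs had 2.82, 3.03 and 3.93 FPKM. The log2 difference was 0.36 (SE 0.26; limma, adjusted p = 1.0; exact permutation p = 0.223) against No NEC and 0.20 (SE 0.22; adjusted p = 0.910; exact permutation p = 0.424) against Co-NEC. Of 20 interactions of group and sex fitted for the members, those of the ligands in the Si-NEC comparisons left out, 0 passed and 1 had an unadjusted p under 0.05. This was CALCRL in Si-NEC against Co-NEC, at -0.94 log2 units for male minus female pigs (limma, SE 0.30, unadjusted p = 0.00990, adjusted p = 0.484), where 10.18% of all entries reached such a p. RAMP2, the partner that makes CALCRL an adrenomedullin receptor, ran from 59.7 to 82.8 FPKM in No NEC, from 54.0 to 64.6 FPKM in Co-NEC and from 51.1 to 90.2 FPKM in Si-NEC pigs. Its highest values were those of Si-NEC pig 223-15 and No NEC pig 230-15, the pigs that stood apart across all genes. The log2 difference of Si-NEC against No NEC was -0.03 (SE 0.15; adjusted p = 1.0; exact permutation p = 0.818), and it was 0.04 without pig 230-15.

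The mean levels of the enzymes lay close together between the groups. ECE1 averaged 13.4 ± 1.21 FPKM (n = 5) in No NEC, 13.4 ± 1.23 FPKM (n = 5) in Co-NEC and 13.7 ± 2.38 FPKM (n = 6) in Si-NEC pigs. Within Si-NEC it was 11.5, 11.6 and 11.7 FPKM in pigs 547-14, 539-14 and 223-15. It was 15.1, 15.2 and 17 FPKM in pigs 226-15, 224-15 and 246-15. The No NEC pigs ran from 12.1 to 14.9 FPKM and the Co-NEC pigs from 12.2 to 14.9 FPKM. How many tested entries show such a spread in Si-NEC was not counted. The SD of ECE1 within groups lay at the 20.8th percentile of entries of like level. The log2 difference from No NEC was 0.02 (SE 0.13; limma, adjusted p = 1.0; exact permutation p = 0.881). NOS3 averaged 8.0 ± 1.25 FPKM (n = 5) in No NEC, 7.20 ± 1.15 FPKM (n = 5) in Co-NEC and 8.12 ± 1.36 FPKM (n = 6) in Si-NEC pigs. Its log2 difference was 0.02 (SE 0.15; adjusted p = 1.0; exact permutation p = 0.916) in Si-NEC and -0.14 (SE 0.14; adjusted p = 0.821; exact permutation p = 0.325) in Co-NEC, each against No NEC.

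**Figure D2:**
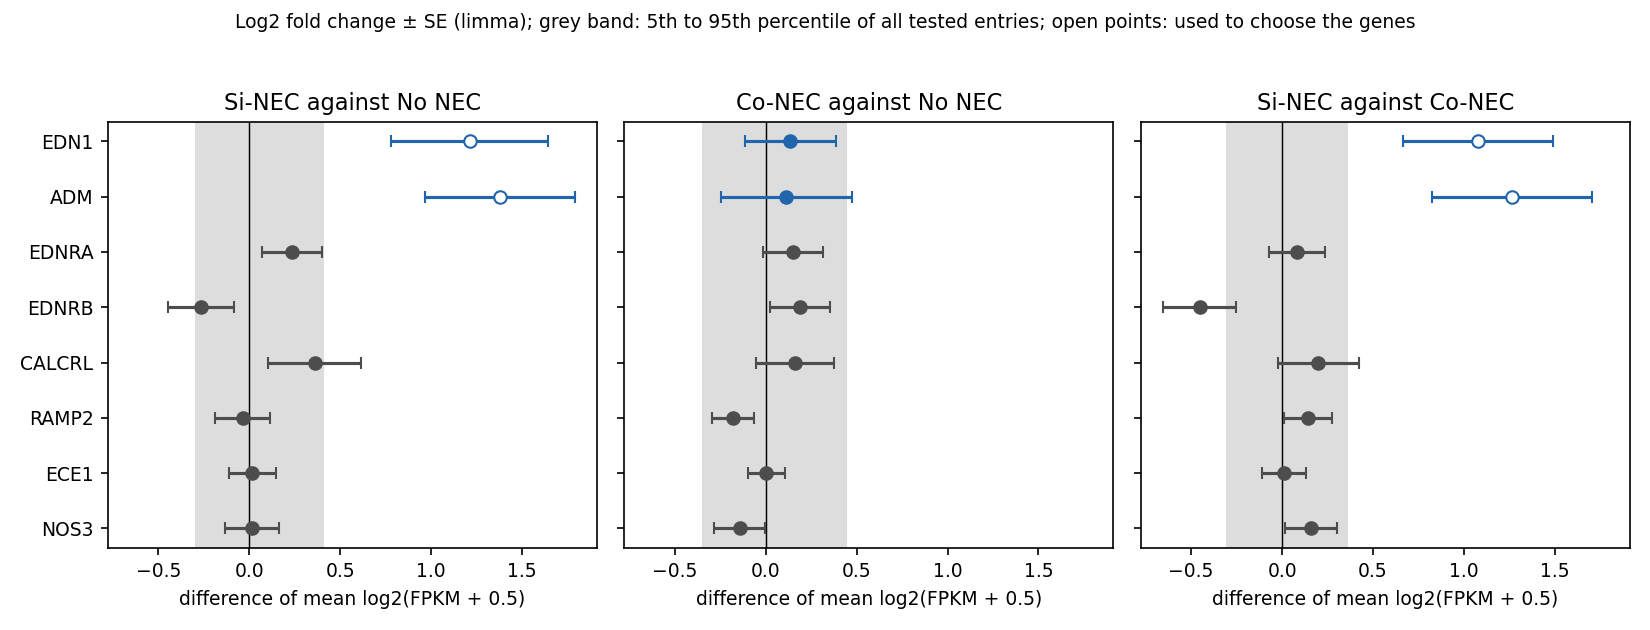
Difference of mean log2(FPKM + 0.5) with its SE (horizontal axes) of the 8 genes in the 3 comparisons, ligands in blue and receptors and enzymes in grey. The grey band spans the 5th to the 95th percentile of all 13590 tested entries. The open points of EDN1 and ADM are differences that had been used to choose them and lie above the band, and EDNRB lies below it in Si-NEC against Co-NEC.

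At an adjusted p under 0.2 in limma, 0 of the 6 members that the study had not listed passed in the comparisons with Si-NEC, and 0 of all 8 members in Co-NEC against No NEC. Over all tested entries 0.00736% passed in Si-NEC against No NEC, 0.00736% in Co-NEC against No NEC and 0.0147% in Si-NEC against Co-NEC. Among the same 6 members an unadjusted p under 0.05 was reached by 0 in Si-NEC against No NEC, where 2.61% of all entries reached it, and by EDNRB alone in Si-NEC against Co-NEC, where 5.64% did. In Co-NEC against No NEC 0 of 8 members reached it, against 3.44% of all entries. In no member did the pigs of 2 groups separate fully, as they did for 0.155%, 0.464% and 0.545% of all entries in Si-NEC against No NEC, Co-NEC against No NEC and Si-NEC against Co-NEC. The median log2 difference of the 6 receptors and enzymes from No NEC was 0.02 in Si-NEC, equal to the 0.02 of all tested entries, and 0.08 in Co-NEC, where it was 0.01 over all entries. The groups are small, and the smallest p that the exact test allows is 0.002165 with 6 against 5 pigs and 0.007937 with 5 against 5.

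The ligands were higher in the Si-NEC pigs while the mean levels of the receptor genes lay close together between the groups. That mean joins genes with opposite differences, such as EDNRB at -0.27 and CALCRL at 0.36 log2 units in Si-NEC against No NEC. Per pig, the mean log2 level of EDN1 and ADM was 1.82 ± 0.91 (SD, n = 6) in Si-NEC, 0.65 ± 0.52 (n = 5) in Co-NEC and 0.52 ± 0.45 (n = 5) in No NEC pigs. The mean log2 level of EDNRA, EDNRB, CALCRL and RAMP2 was 2.55 ± 0.19 (n = 6) in Si-NEC, 2.56 ± 0.10 (n = 5) in Co-NEC and 2.48 ± 0.12 (n = 5) in No NEC pigs. The mean gap, ligands minus receptors, therefore differed by 1.22 log2 units between Si-NEC and No NEC. Within Si-NEC it ranged from -1.88 in pig 547-14 to 0.81 in pig 246-15. In only that pig of the 16 did the mean of the ligands exceed that of the receptor genes. RAMP2, the most abundant member at 64.5 FPKM, raised this receptor mean. Against EDNRA alone, the median ratio of EDN1 was 1.38 in No NEC, 1.22 in Co-NEC and 2.55 in Si-NEC pigs. Since the ligands had been chosen on this contrast, the gap is a description and was not tested.

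Ratios of single ligands to receptors are likewise a description. EDN1 over EDNRB was 0.544 ± 0.268 (n = 5) in No NEC and 0.551 ± 0.296 (n = 5) in Co-NEC pigs, all 10 of them under 1. In Si-NEC pigs it was 0.395 in pig 547-14 and 1.18, 1.46, 1.57, 4.16 and 7.45 in the other 5. ADM over CALCRL was 0.245 ± 0.0865 (n = 5) in No NEC, 0.281 ± 0.196 (n = 5) in Co-NEC and 0.762 ± 0.524 (n = 6) in Si-NEC pigs, and it exceeded 1 only in pigs 539-14 and 246-15, at 1.15 and 1.65. EDN1 over ADM, the ratio of the ligands to each other, was 1.43 ± 0.627 (n = 5), 1.58 ± 0.842 (n = 5) and 1.12 ± 0.398 (n = 6) in No NEC, Co-NEC and Si-NEC pigs.

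**Figure D3:**
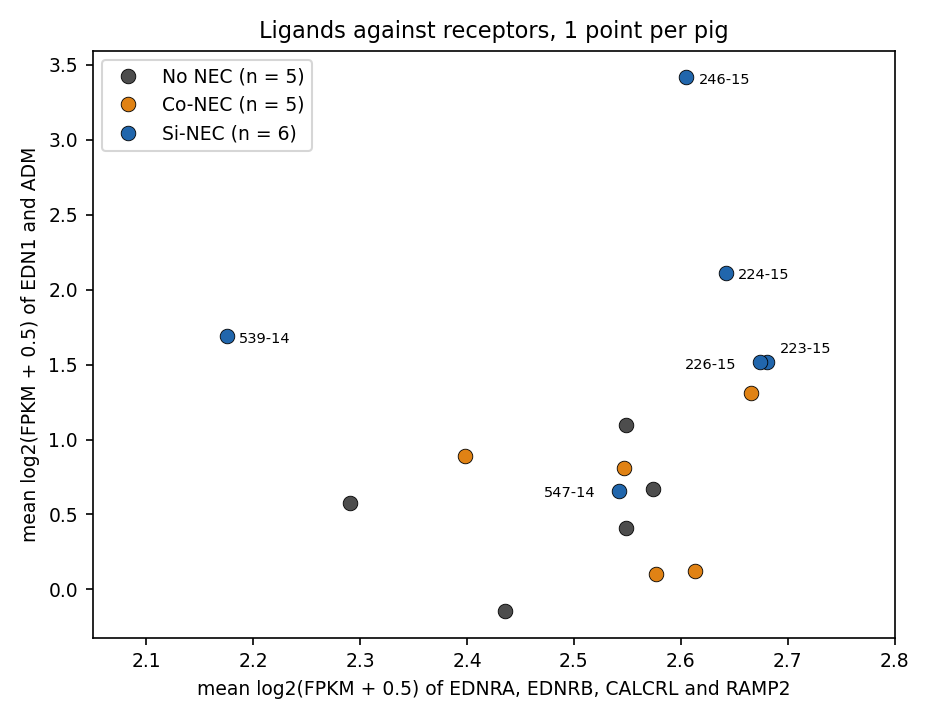
Mean log2(FPKM + 0.5) of EDN1 and ADM (vertical axis) against that of EDNRA, EDNRB, CALCRL and RAMP2 (horizontal axis, not starting at 0), 1 point per pig. The Si-NEC pigs, labelled by their number, spread upward to 3.42 in pig 246-15, while the receptor means of all pigs lie between 2.18 and 2.68.

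Sex and the suffix of the label were not themselves used in choosing the members, and their differences in the ligands did not pass. Within Si-NEC, however, EDN1 averaged 5.97 FPKM in female and 1.98 FPKM in male pigs, and ADM 5.05 and 2.15 FPKM. All female pigs had suffix 15. The high Si-NEC values that had listed the ligands thus lay mostly in such pigs, and the p of the ligands for sex and suffix are not free of that choice. In both other groups the female mean of each ligand was also the higher. EDN1 ran from 1.39 through a median of 1.67 to 10.6 FPKM in the 7 female pigs and from 0.447 through 1.14 to 2.53 FPKM in the 9 male pigs. ADM ran from 0.659 through a median of 2.34 to 9.72 FPKM in female and from 0.322 through 0.836 to 3.24 FPKM in male pigs. With the group in the fit, the log2 difference of male from female pigs was -0.73 for EDN1 (SE 0.27; limma, unadjusted p = 0.0171, adjusted p = 1.0) and -0.87 for ADM (SE 0.28; unadjusted p = 0.00692, adjusted p = 1.0). For ECE1 it was -0.21 (SE 0.08; unadjusted p = 0.0251, adjusted p = 1.0). In ECE1 both female No NEC pigs (14.5 and 14.9 FPKM) exceeded all 3 male ones (12.1 to 12.9 FPKM), and both female Co-NEC pigs (14.6 and 14.9 FPKM) all 3 male ones (12.2 to 13 FPKM). In Si-NEC the sexes overlapped, with female pig 223-15 at 11.7 FPKM and male pig 226-15 at 15.1 FPKM.

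In limma 0 of the 8 members passed an adjusted p of 0.2 for sex, as 0.0515% of all tested entries did, and 3 of 8 reached an unadjusted p under 0.05, against 3.25% of all entries. The log2 difference of pigs with suffix 15 from those with suffix 14 was 0.58 for EDN1 (SE 0.31; limma, unadjusted p = 0.0758), 0.66 for ADM (SE 0.32; unadjusted p = 0.0589), 0.23 for ECE1 (SE 0.08; unadjusted p = 0.0148) and -0.30 for EDNRB (SE 0.14; unadjusted p = 0.0497), each with an adjusted p = 0.915. For the suffix 0 members passed 0.2, against 0.0221% of all entries, and 2 reached an unadjusted p under 0.05, against 5.11%. With both terms in the fit the sex difference was -0.65 for EDN1 (unadjusted p = 0.115) and -0.80 for ADM (unadjusted p = 0.0596), while the suffix difference was 0.13 for EDN1 (unadjusted p = 0.742) and 0.10 for ADM (unadjusted p = 0.804). For ECE1 the sex difference was then -0.11 (unadjusted p = 0.360) and the suffix difference 0.15 (unadjusted p = 0.198). Because every pig with suffix 14 was male, sex and suffix can be told apart only through the 3 male pigs with suffix 15. In the marker lists 0 genes passed 0.2 for sex or suffix. A lower mean in males was seen for 7 of 9 endothelial, 7 of 8 mural, 6 of 6 meningeal and fibroblast, 5 of 5 microglial and 0 of 6 neuronal genes, against 6693 of all 13590 entries, and 2 of these endothelial, 4 mural and 2 meningeal and fibroblast genes reached an unadjusted p under 0.05. A higher mean in suffix 15 was seen for 10 of 10 genes of the hypoxia response, 5 of 5 microglial and 0 of 6 neuronal genes, against 7322 of all entries. The part of these cells in the ligand differences was not tested. Adding sex to the fit left the Si-NEC difference from No NEC at 1.12 (SE 0.36) for EDN1 and 1.30 (SE 0.36) for ADM.

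The variation from pig to pig was examined with the group means removed. In a family of 16 relations over 16 pigs, tested with 100000 permutations of pigs within groups, 3 passed an adjusted p of 0.05 by Pearson's r. EDN1 went with ADM at r = 0.815 (permutation p = 0.00068, adjusted p = 0.00544), and Spearman's rho was 0.688 (permutation p = 0.00564, adjusted p = 0.0301). Both ligands had been listed for high Si-NEC values in these same pigs, with pig 246-15 highest in both. Removing the group means leaves the spread within Si-NEC, so the p of this pair is not free of that choice. EDN1 went with ECE1 at r = 0.808 (permutation p = 0.00039, adjusted p = 0.00544), and rho was 0.747 (permutation p = 0.00259, adjusted p = 0.0207). EDN1 went with the mean log2 level of 9 endothelial marker genes at r = 0.750 (permutation p = 0.00102, adjusted p = 0.00544), and rho was 0.888 (permutation p = 0.00027, adjusted p = 0.00432). The summed FPKM of these genes was highest in No NEC pig 230-15 (87.4), the pig with the lowest EDN1 (0.447 FPKM). Pigs 246-15 and 224-15, highest in EDN1, held places 3 and 4 of that sum. The relation of EDN1 with the sum was not tested. Without pigs 246-15 and 224-15, the farthest from the median of EDN1, r was 0.738, 0.612 and 0.712 for these 3 relations. Without pigs 223-15 and 230-15, which stood apart across all genes, the relation of EDN1 with the endothelial mean no longer passed (r = 0.773, adjusted permutation p = 0.0651), while those with ADM and ECE1 did (both adjusted permutation p = 0.0353). Within suffix 14 (6 pigs, 2 of each group) r was 0.653, 0.756 and 0.492, and within suffix 15 (10 pigs) it was 0.798, 0.777 and 0.776. With 2 pigs per group, removing the group means leaves few independent values. The r within suffix 14, here and below, can therefore be large without meaning and was not tested.

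These calls depended on how the pigs' sex was treated. With the means of sex removed as well as those of group, an alternative added after the data were seen, r was 0.708, 0.698 and 0.686 and the adjusted permutation p was 0.102, 0.102 and 0.0898, so that 0 of the 16 relations passed. With group, sex and suffix removed r was 0.706, 0.736 and 0.746 (adjusted permutation p = 0.0528, 0.0545 and 0.0318), and the 3 relations that passed were those of EDN1, EDNRA and ECE1 with the endothelial mean.

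EDN1 and EDNRB ran in opposite directions among the pigs of a group. Pearson gave r = -0.637 (permutation p = 0.0233, adjusted p = 0.0745), and rho was -0.665 (permutation p = 0.0101, adjusted p = 0.0324), so that the relation passed by rank only. It was -0.660 without pigs 246-15 and 224-15, -0.870 within suffix 14, -0.413 within suffix 15 and -0.497 with sex removed. ECE1 went with the endothelial mean at r = 0.641 (permutation p = 0.0131, adjusted p = 0.0523), and rho was 0.715 (permutation p = 0.00873, adjusted p = 0.0324), and at r = 0.473 without pigs 246-15 and 224-15. Within suffix 14 and 15 that r was 0.921 and 0.815. The other 11 relations had an adjusted permutation p of 0.0762 or more. Among them ADM and its receptor CALCRL gave r = 0.497 (permutation p = 0.0735, adjusted p = 0.118), and rho was 0.456 (permutation p = 0.0935, adjusted p = 0.150). RAMP2 and CALCRL gave r = 0.0932 (permutation p = 0.781, adjusted p = 0.781), and rho was -0.0441 (permutation p = 0.892, adjusted p = 0.892).

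RAMP2 and the endothelial mean gave no relation that passed, with r = -0.301 (permutation p = 0.321, adjusted p = 0.343), and rho was -0.197 (permutation p = 0.527, adjusted p = 0.562). The sign turned without pigs 223-15 and 230-15, the highest in RAMP2, where r was 0.486. Within suffix 14, with few independent values, it was 0.900, and within suffix 15 it was -0.897.

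**Figure D4:**
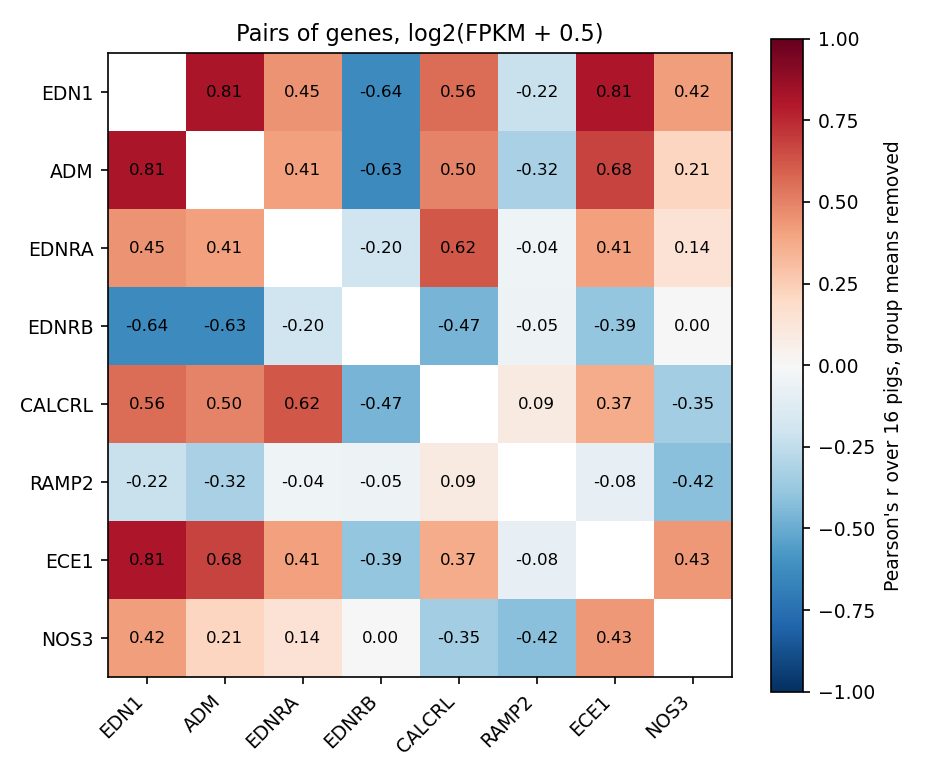
Pearson's r of each pair of the 8 genes over 16 pigs after the group means were removed, on log2(FPKM + 0.5), with red for positive and blue for negative values. EDN1, ADM and ECE1 form the reddest block (0.68 to 0.81), EDNRB is negative with both ligands (-0.64 and -0.63), and RAMP2 is near 0 or negative with most.

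**Figure D5:**
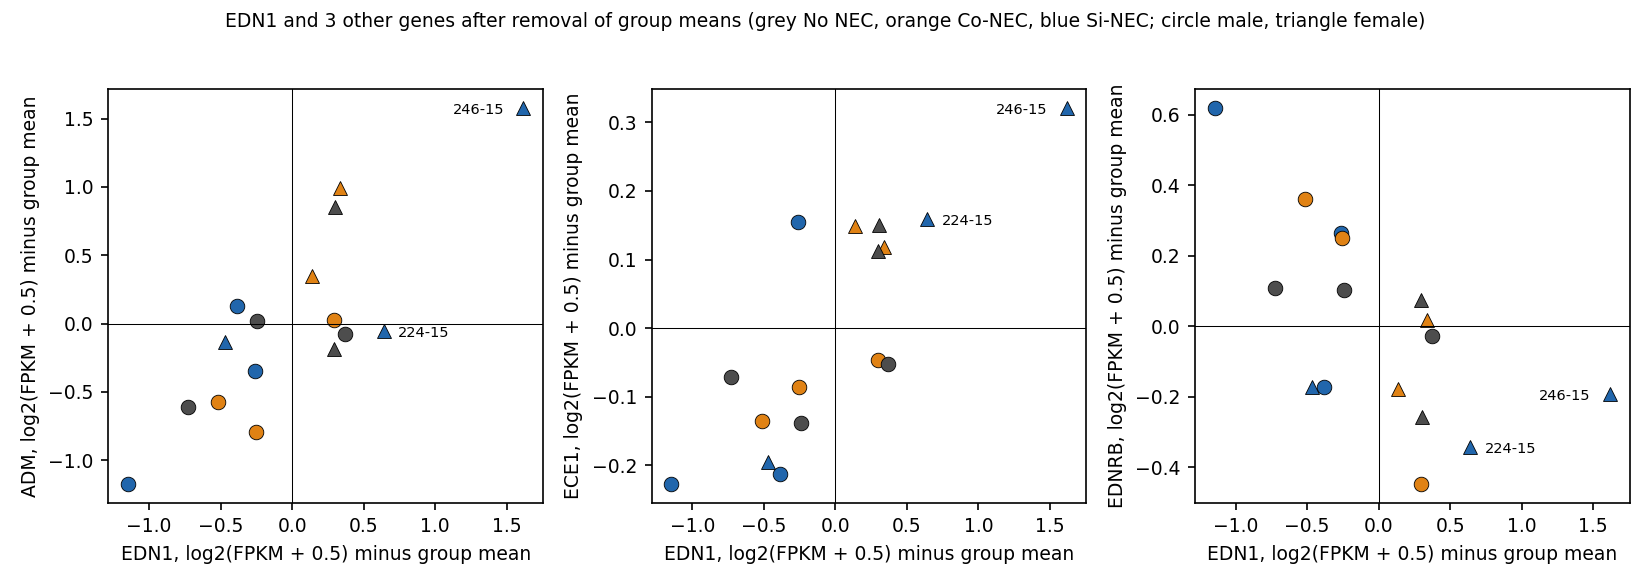
EDN1 (horizontal axes) against ADM, ECE1 and EDNRB (vertical axes), each as log2(FPKM + 0.5) minus the mean of the pig's group. Grey, orange and blue points are No NEC, Co-NEC and Si-NEC pigs, circles are male and triangles female. Pig 246-15 is at the far right of each panel, where ADM and ECE1 are highest.

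The entries whose level ran most like that of each member over the 16 pigs were listed by Spearman's rho among 9068 other named entries, as a description. All points are the same 16 libraries, and the group differences are part of the values. EDN1 was closest to TINAGL1 (rho 0.932), which encodes a matrix protein, LRRC32 (0.891), the surface carrier of latent TGF-beta, EPHA2 (0.868), an ephrin receptor, ADM (0.865) and TGM3 (0.858), a transglutaminase. ADM was closest to EPHA2 (0.903), CD248 (0.876), a marker of pericytes and fibroblasts, MAFF (0.874), a stress-induced transcription factor, EDN1 (0.865) and TEAD4 (0.853). Thus each ligand was among the 5 entries most like the other, and EPHA2 stood in both lists. LRRC32, and OPALIN named next, had also been in the study's lists for both Si-NEC comparisons.

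The receptors and enzymes had other neighbours. EDNRB was closest to OPALIN (rho 0.812), a gene of myelinating oligodendrocytes, WNT7B (0.80) and LRRC71 (0.794). EDNRA was closest to ALG8 (0.83), UBD (0.815) and FLT1 (0.797), the last a VEGF receptor that is itself 1 of the 9 endothelial markers. CALCRL was closest to PGM2 (0.926), IL13RA1 (0.888) and IFNGR1 (0.882), the last 2 being cytokine receptor genes. ECE1 was closest to SH3TC1 (0.906), SLC7A2 (0.882), a transporter of cationic amino acids, and JAG1 (0.850), a Notch ligand. NOS3 was closest to WIZ (0.888), LHFPL4 (0.871) and POU6F1 (0.865), and RAMP2 to TENT5C (0.809), COASY (0.788) and CREG2 (0.776). No member other than EDN1 and ADM was among the closest entries of another.

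Of 68 other genes of vasoactive peptides, nitric oxide and their signalling, 44 were found and 36 tested. In limma 0 passed an adjusted p of 0.2 in any of the 3 comparisons, and their median log2 difference was -0.02 in Si-NEC and -0.0013 in Co-NEC against No NEC, and 0.02 in Si-NEC against Co-NEC. The gene with the smallest p in both Si-NEC comparisons was ACKR3, a decoy receptor that binds adrenomedullin as well as the chemokine CXCL12. ACKR3 was 6.78, 9.03, 9.12, 11.6 and 12.7 FPKM in the No NEC pigs, 9.08, 10.05, 11.8, 12.1 and 13.3 FPKM in the Co-NEC pigs and ran from 12.2 to 16.5 FPKM in the Si-NEC pigs. The Si-NEC range of ACKR3 thus overlapped those of both other groups. Its log2 difference was 0.56 (SE 0.16; limma, unadjusted p = 0.00397, adjusted p = 1.0) against No NEC and 0.36 (SE 0.12; unadjusted p = 0.0105, adjusted p = 0.851) against Co-NEC. It had not been in the study's lists, and in Si-NEC against No NEC it was the only 1 of the 36 with an unadjusted p under 0.05, against 2.61% of all entries. In Si-NEC against Co-NEC ACKR3 and ROCK2, 2 of the 36, reached such a p, a share close to the 5.64% of all entries, and in Co-NEC against No NEC 0 of 36 did. ENPEP, another gene of the list, had been in the study's lists. The log2 difference of ACKR3 in male from female pigs was -0.25 (SE 0.11; unadjusted p = 0.0438, adjusted p = 1.0).

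Next by p came receptors and signalling genes of other vasoactive pathways. Against No NEC, Si-NEC pigs differed by -0.33 in VIPR1 (SE 0.18; limma, unadjusted p = 0.0901), a receptor of the vasodilator VIP, and by -0.42 in NPPC (SE 0.28; unadjusted p = 0.167), which encodes C-type natriuretic peptide. Against Co-NEC they differed by -0.27 in ROCK2 (SE 0.12; unadjusted p = 0.0461), a kinase of smooth muscle contraction, and by -0.30 in GUCY1A2 (SE 0.17; unadjusted p = 0.0982), a subunit of the nitric oxide receptor. In Co-NEC against No NEC the smallest p were those of NOSIP at -0.43 (SE 0.21; unadjusted p = 0.0707), GUCY1A2 at 0.44 (SE 0.24; unadjusted p = 0.0891) and ROCK1 at 0.22 (SE 0.12; unadjusted p = 0.0942). The adjusted p of all of these was at least 0.812.

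Among the markers of cells that make or receive these peptides 0 passed an adjusted p of 0.2 in limma in any comparison of the groups. An unadjusted p under 0.05 was reached in Si-NEC against No NEC by 1 of 9 endothelial genes with the lower mean in Si-NEC, by 0 of 8 mural genes and by 1 of 10 hypoxia genes with the higher mean, against 2.61% of all entries. In Si-NEC against Co-NEC it was reached by 2 of 9 endothelial genes, both with the higher mean in Si-NEC, and by 0 of the mural and hypoxia genes, against 5.64% of all entries. The summed FPKM of the 9 endothelial markers found, led by EGFL7, ran from 69.5 to 87.4 in No NEC, from 57.2 to 69.0 in Co-NEC and from 66.0 to 76.8 in Si-NEC pigs, and CDH5, CLDN5 and VWF were not found by name. Of these 9 genes 5 had a higher and 4 a lower mean in Si-NEC against No NEC (median log2 difference 0.09), 6 of 9 had a higher one in Si-NEC against Co-NEC (median 0.08), and PECAM1, CLEC14A and ROBO4 had been in the study's list of Si-NEC against Co-NEC. The 9 mural markers found, MYH11 among them at 0 in all pigs, summed to 49.6 to 62.5 FPKM in No NEC, 41.8 to 64.7 in Co-NEC and 52.3 to 80.2 in Si-NEC pigs, 6 of 8 tested having a higher mean in Si-NEC against No NEC (median 0.24), and 0 passed. The 10 genes of the hypoxia response found hold neither ligand but hold PDK4 of the study's Si-NEC lists. A higher mean than in No NEC pigs was seen for 7 of 10 in Si-NEC (median 0.11) and for 8 of 10 in Co-NEC (median 0.11), with 0 passing in either. Of all 13590 tested entries 7309 had a higher mean in Si-NEC and 7067 in Co-NEC against No NEC, and 6808 in Si-NEC against Co-NEC. The summed level of the neutrophil genes found ran from 1.13 to 3.64 FPKM in No NEC, from 1.11 to 2.97 in Co-NEC and from 2.78 to 26.7 in Si-NEC pigs. This sum was led by S100A8, the 1 of 7 genes found that was tested and itself a gene of the study's Si-NEC lists, while MPO, ELANE, CSF3R, MMP8, MMP9 and LTF averaged under 0.5 FPKM. Pig 246-15, with the highest EDN1, ADM and ECE1, also had the highest neutrophil and choroid plexus sums (26.7 and 27.1 FPKM), and the part of these cells in its ligand levels was not tested.

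The remaining marker lists had 0 genes past an adjusted p of 0.2 in limma in any comparison. In Si-NEC against No NEC 1 of 6 neuronal genes had an unadjusted p under 0.05, with the lower mean in Si-NEC, against 2.61% of all entries. In Si-NEC against Co-NEC 1 of 6 neuronal and 1 of 6 meningeal and fibroblast genes did, both with the lower mean in Si-NEC, against 5.64%. Median log2 differences of Si-NEC from No NEC were 0.07 for 3 astrocyte genes, -0.09 for 6 neuronal genes, -0.09 for 5 microglial genes, -0.21 for 2 genes of the choroid plexus, -0.03 for 6 meningeal and fibroblast genes and -0.74 for 3 erythroid genes, the last among them HBB and ALAS2, which had themselves been in the study's lists. The summed level of the microglial genes was highest in pigs 223-15 and 230-15 (120 and 105 FPKM), the pigs that stood apart.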

How the data were processed

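Whole left hippocampus RNA of 16 pigs was sequenced. Per the labels and the study's methods, the authors mapped reads with TopHat 2.1.1 to Sscrofa 10.2 and deposited FPKM values per gene, made with Cufflinks 2.2.1. Of 24594 entries, 1779 with identical values were dropped, leaving 22815, of which 13590 had a mean of at least 0.5 FPKM. Symbols came from RefSeq tables of another build, so no coordinates are given. EDN1 was assigned where 1 entry lay within 0.05 log2 units of the study's group means and the next was at least 3 times farther. The members and lists were chosen with earlier results of these data known.

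Pairs of groups were compared with limma 3.58.1 (R 4.3.3) on log2(FPKM + 0.5), with a mean-variance trend and Benjamini-Hochberg adjustment over all tested entries. The threshold of 0.2 follows the study. Cuffdiff was not rerun, and the model was tested on simulated data. Exact permutation tests were two-sided, over all splits of the pigs. Sex and label suffix were fitted over 16 pigs with group as covariate. Relations used 100000 permutations within groups (numpy 2.4.6, pandas 2.3.3, scipy 1.17.1). Besides the members, the text names per comparison up to 3 pathway genes with the smallest p, the 5 entries (EDN1, ADM) or 3 entries (others) with the highest Spearman's rho, and the most abundant gene of a marker list. Other genes of the marker lists, and the genes that the study had listed, were named after their values were seen. Low values did not give whole reads (under 0.1 FPKM, at most 13.1% of a pig's values shared 1 ratio with a reference pig), so read depth and counting error are unknown. The pigs are separate animals, and litter is not in the labels.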

Additional observations from a re-analysis of the deposited data

Results flagged for a closer look

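NOS3 had 1 low value in the Si-NEC group. Pig 223-15 had 5.51 FPKM against 8.20 FPKM in the next pig, and this gap was 0.731 of the group's whole range, more than Dixon's 95% limit for 6 pigs allows. It was the only such value among 24 combinations of gene and group, and chance gives about 1 in 20. Pig 223-15 was also 1 of the 2 pigs that stood apart across all genes. Without it the log2 difference of NOS3 between Si-NEC and No NEC pigs was 0.12 in place of 0.02.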

How the results depend on the processing

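At an adjusted p under 0.2, 0 of the 6 members that the study had not listed passed in the Si-NEC comparisons, and 0 of 8 in Co-NEC against No NEC, for sex or for suffix, under any setting tried. The log2 differences of EDN1 and ADM in both Si-NEC comparisons were above 0 under every setting. The number of all tested entries past the threshold in Si-NEC against No NEC was 1, and became 2 with the suffix as covariate and 4 with array weights. In Co-NEC against No NEC it was 1, and 4 with no filter on low values. In Si-NEC against Co-NEC it was 2, and 1 with a pseudocount of 0.1, no filter, 1 fit over 3 groups, sex or suffix as covariate, pigs 223-15 and 230-15 left out or a threshold of 0.05, but 201 with array weights, and the cause was not tested. Leaving out single pigs gave 1 to 3 entries in Si-NEC against No NEC (3 without 540-14), 1 to 2 in Co-NEC against No NEC (2 without 225-15 or 540-14) and 1 to 12 in Si-NEC against Co-NEC (12 without 547-14, 5 without 255-15). It moved the ligand gap between Si-NEC and No NEC from 0.91 to 1.45.

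The number of relations past an adjusted p of 0.05 was 3. It was 5 after rescaling by the median of ratios, 4 with a pseudocount of 1 or with group and suffix means removed, 2 without pigs 223-15 and 230-15, where EDN1 with the endothelial mean was lost (adjusted permutation p = 0.0651), 0 with group and sex means removed, and 3 to 5 when single pigs were left out (5 without 550-14).

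Signs turned only for log2 differences of at most 0.14 in size. With sex as covariate ECE1 became -0.0035 in Si-NEC against No NEC and -0.0085 against Co-NEC, where the suffix gave -0.0054. Array weights gave 0.036 for RAMP2 in Si-NEC against No NEC, and -0.11 for ADM and -0.013 for ECE1 in Co-NEC against No NEC. In that comparison rescaling gave -0.00084 for ECE1, and leaving out pigs 223-15 and 230-15 gave -0.045 for EDN1, -0.038 for ADM and -0.013 for ECE1. Over single pigs left out, the values in Si-NEC against No NEC ran from -0.047 to 0.062 for ECE1, -0.042 to 0.12 for NOS3 and -0.13 to 0.041 for RAMP2. They ran from -0.13 to 0.33 for ADM, -0.045 to 0.27 for EDN1 and -0.032 to 0.042 for ECE1 in Co-NEC against No NEC, and from -0.052 to 0.057 for ECE1 in Si-NEC against Co-NEC. Group sizes of 5 and 6 pigs and an unknown read depth limit all comparisons. No paired analysis was possible because the pigs' labels carry no replicate number shared between groups.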
